A study of Oncorhynchus mykiss with 27 samples.

Results

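The effect of trilostane on the transcriptome of testis explants stimulated with follicle-stimulating hormone (Fsh) was examined in rainbow trout. The comparison set 6 arrays of explants cultured with Fsh and trilostane (Fsh+Tri) against 6 arrays of explants cultured with Fsh alone (Fsh), chosen by the titles of the samples, out of 27 arrays in all. The Fsh+Tri explants received purified Fsh, called trout in the labels and salmonid in the methods, at 500 ng/mL and trilostane at 10 µg/mL, which was added 1 h before Fsh, and the Fsh explants received Fsh at the same dose. The other cultured arrays were 6 of trilostane alone (Tri) and 6 without added substance (Ctrl), and 3 arrays held tissue at day 0. All cultured explants came from testes of an all-male trout population and, per the methods, were pooled before they were spread over wells. They were kept for 96 h at 12 °C with 1 change of medium at 48 h. The labels give each array 1 stage of testis maturation, I-II or III, whereas the methods describe wells of both stages. By the methods the 6 replicates are wells filled from 1 pool, and a p-value then speaks of the spread from well to well only. The explants hold Sertoli, Leydig, germ and other cells together, so that fewer cells of a type and less RNA per cell cannot be told apart.

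Fsh is a pituitary hormone that acts on the somatic cells of the testis. In fish it stimulates Leydig cells to make steroids as well as acting on Sertoli cells, the cells that surround and nourish the germ cells. Trilostane inhibits 3β-hydroxysteroid dehydrogenase, the enzyme that converts Δ5 steroids into Δ4 steroids such as testosterone and 11-ketotestosterone, the main androgen of male fish. The comparison of Fsh+Tri with Fsh therefore asks which transcripts stand at another level when Fsh acts while this enzyme is inhibited. The hormones of the culture medium were not analysed here.

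Transcripts were measured on nylon membranes spotted with cDNA clones and hybridised with radioactively labelled cDNA. The values are log2 levels, so that a difference of 1 is a doubling, and levels of different clones are not compared. Out of 9024 clones, those measured on 80% or more of the 24 cultured arrays were kept. Of these, limma tested the clones whose mean reached the overall median level under 1 treatment or more, 4565 in all. A clone can enter in this way through its level under 1 treatment alone. Without this filter on level, 8244 clones were tested and 59 passed. Names come from the study's own list of 102 clones, all of them tested, and from *rps15*, the reference gene, so that most clones have no name here. The study selected its 102 clones for a response to Fsh on arrays that include these 12. The direction of a named clone is therefore not independent evidence. The 12 arrays resembled each other closely, with correlations over the clones tested of 0.885 to 0.965. Fsh replicate 4 had the lowest mean correlation with the other 11, 0.909. Without it 57 clones in place of 66 passed, as many as without Fsh replicate 2 or 5, and 52 passed without Fsh+Tri replicate 6. The correlations of the Tri and Ctrl arrays, which share the estimate of the spread, were not compared. Without Ctrl replicate 4, 88 clones passed.

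With trilostane added to Fsh, 45 clones were higher and 21 lower at an adjusted p under 0.05 (limma, Benjamini-Hochberg over 4565 clones), which is 0.986% and 0.46% of the clones tested. At an unadjusted p under 0.05, 275 clones (6.02%) were higher and 166 (3.64%) lower. Of the clones that passed, 20 of the higher and 6 of the lower ones differed at least 2-fold, and 4 and 2 at least 4-fold. All 6 Fsh+Tri arrays lay above all 6 Fsh arrays in 38 of the 45 higher clones, and below them in 16 of the 21 lower clones. Over all clones tested, 1.4% lay wholly above and 0.723% wholly below, 2.12% in all. Of the 102 clones of the study's list, 13.7% were lower and 6.86% higher. The lower clones were mostly named, 14 of 21, whereas 38 of the 45 higher clones had no name.

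The 2 named clones with the largest fall encode an anion transporter and a neurohypophysial hormone. *slc26a4*, which encodes a membrane exchanger of anions such as chloride and iodide, had log2 levels between 5.12 and 6.16 with a median of 5.58 on the Fsh+Tri arrays, against levels between 9.11 and 9.75 with a median of 9.55 on the Fsh arrays. The arrays were thus separated by 2.96 on the log2 scale. The log2 difference of *slc26a4* was -3.89, or 14.8-fold lower in Fsh+Tri (standard error 0.22, adjusted p = 8.32e-14). It stood at 5.59 ± 0.52 in Tri and 7.27 ± 0.53 in Ctrl (SD, n = 6 each). The difference of Fsh+Tri from Ctrl, which shares the Fsh+Tri arrays with the one above, was -1.66. On the 3 day 0 arrays *slc26a4* lay between 5.39 and 5.66.

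*vt1*, which encodes a precursor of vasotocin, the fish counterpart of vasopressin, had log2 levels between 6.21 and 6.91 with a median of 6.31 in Fsh+Tri and between 8.72 and 9.50 with a median of 9.09 in Fsh. No arrays overlapped, with a gap of 1.81. The level was 6.21-fold lower in Fsh+Tri, a log2 difference of -2.63 (standard error 0.15, adjusted p = 8.32e-14). Between Fsh+Tri and Ctrl, the difference of *vt1* was 0.43 (standard error 0.15, adjusted p = 0.164 in limma), which did not pass. The clone of *it*, which encodes isotocin, the fish counterpart of oxytocin, had levels between 5.43 and 6.07 in Fsh+Tri and between 6.12 and 7.11 in Fsh. These did not overlap either, but the log2 difference of -0.67 (95% interval -1.04 to -0.29) missed the threshold, with an adjusted p of 0.0643 in limma. The mean of this clone was 6.48 in Fsh, against 5.82 in Fsh+Tri, 5.74 in Tri and 5.71 in Ctrl. The clone can thus have entered the test through Fsh alone, and without the filter on level it did not pass either. It passed in 11 of 38 alternative settings, among them without Ctrl replicates 1, 2 or 4, Fsh replicate 6 or Tri replicate 6, where the lowest adjusted p was 0.0428.

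**Figure D1:**
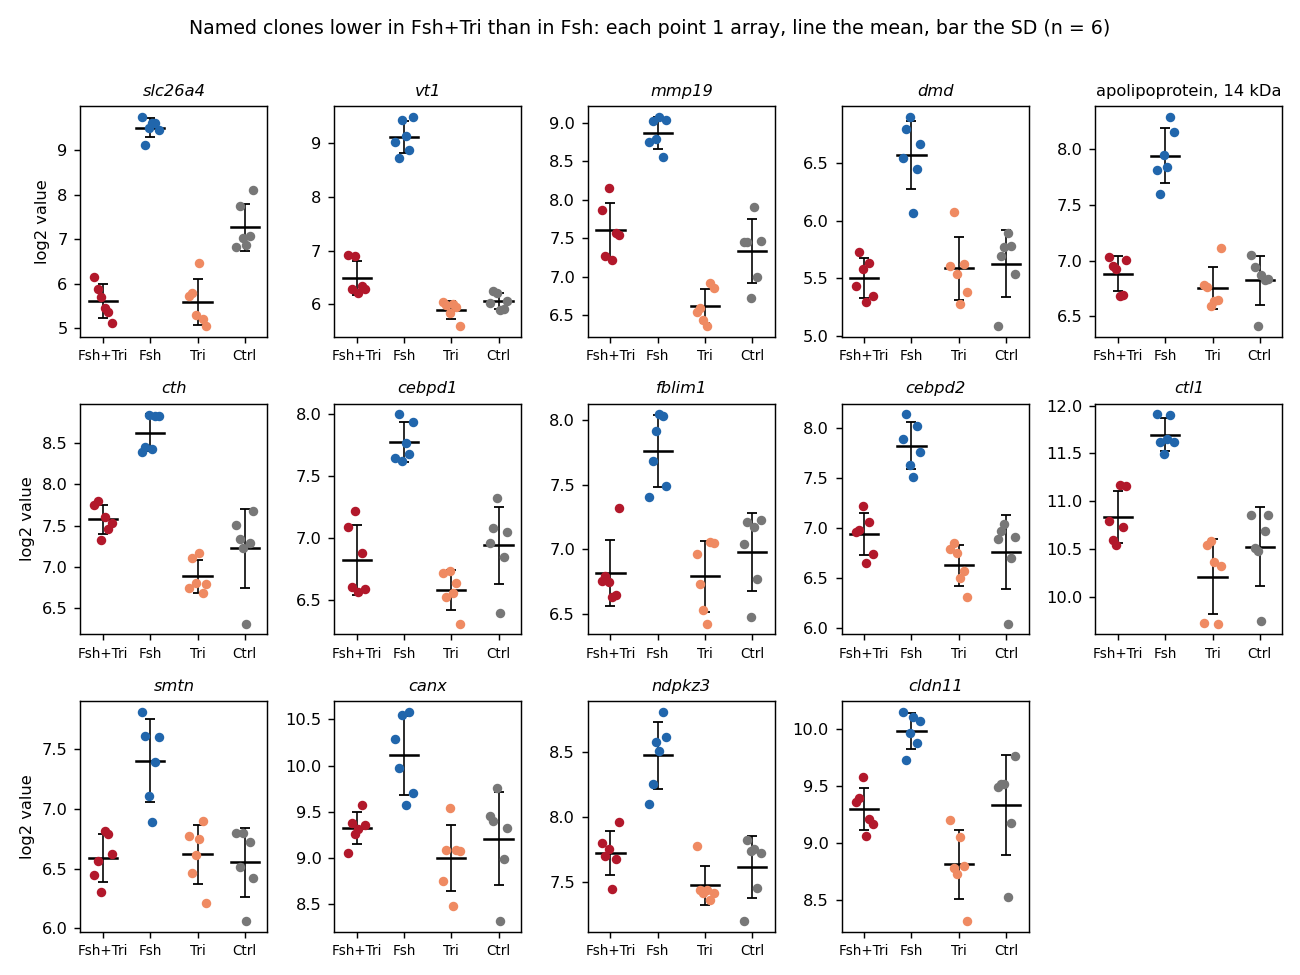
Log2 levels of the 14 named clones that were lower in Fsh+Tri than in Fsh, in 1 panel per clone with the 4 culture treatments on the horizontal axis and each point 1 array. Lines are means and bars SDs over 6 arrays, and in 13 of the 14 panels all Fsh+Tri points lie below all Fsh points, with *canx* as the exception.

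The other 12 named clones that fell had log2 differences between -1.27 and -0.69. Among the proteases, *mmp19*, a metalloproteinase that cleaves extracellular matrix, had levels between 7.22 and 8.15 in Fsh+Tri and between 8.55 and 9.08 in Fsh. It fell by 1.27 on the log2 scale (standard error 0.18, adjusted p = 1.83e-05). *ctl1*, the lysosomal protease cathepsin L, had levels between 10.55 and 11.17 in Fsh+Tri and between 11.49 and 11.91 in Fsh, and fell by 0.86 (standard error 0.18, adjusted p = 0.00458). These were 2 of 8 clones of proteases and their inhibitors that passed, where 13.7% of the study's list and 0.46% of all clones fell. The 8 clones had a median of -0.43, against -0.18 over the study's list and 0.03 over all clones tested. *plg*, the precursor of the protease plasmin, had a difference of -0.48 (95% interval -0.80 to -0.16), *timp2*, an inhibitor of metalloproteinases, -0.46 (-0.77 to -0.15), *cpvl*, a carboxypeptidase, -0.40 (-0.75 to -0.05) and *tfpi2*, an inhibitor of serine proteases, 0.40 (0.11 to 0.69). None of these 4 passed after adjustment (adjusted p from 0.173 to 0.411, limma). Under alternative settings *timp2* passed in 2 of 38, with scanner intensities and with array weights. *plg* passed in 1 of 39, with scanner intensities, and *cpvl* and *tfpi2* in 0 of 39.

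Of 11 clones of the cytoskeleton and cell junctions, 4 fell and none rose, where 0.46% of all clones tested and 13.7% of the study's list fell. *dmd*, dystrophin, links actin filaments to the cell membrane in muscle. Its levels lay between 5.30 and 5.73 in Fsh+Tri and between 6.07 and 6.90 in Fsh, with a log2 difference of -1.07 (standard error 0.15, adjusted p = 4.09e-05). Its mean was 6.57 in Fsh, against 5.59 in Tri and 5.63 in Ctrl, and its call held without the filter on level. *fblim1*, an adaptor at sites of cell adhesion, fell by 0.95 (standard error 0.16, adjusted p = 0.000343), and *smtn*, smoothelin, a protein of contractile smooth muscle, fell by 0.81 (standard error 0.16, adjusted p = 0.00248). *fblim1* had levels between 6.63 and 7.32 in Fsh+Tri and between 7.40 and 8.05 in Fsh, and *smtn* between 6.30 and 6.81 in Fsh+Tri and between 6.89 and 7.81 in Fsh, with gaps of 0.08 in each. *cldn11*, a claudin of the tight junctions between Sertoli cells, had levels between 9.06 and 9.58 in Fsh+Tri and between 9.73 and 10.15 in Fsh. It fell by 0.69 (standard error 0.17, adjusted p = 0.0234). Its call ended in 8 of 39 settings, including without Fsh replicates 1, 4 or 6 or Fsh+Tri replicates 4, 5 or 6, where the adjusted p reached 0.0714.

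The other members of this list did not pass. *sptbn1*, a spectrin of the membrane skeleton, had a difference of -0.58 (95% interval -0.92 to -0.24), with an adjusted p of 0.0883 in limma that passed in 4 of 39 settings, 1 of them without Ctrl replicate 4. *ezr*, which links actin to the membrane, had -0.13 (-0.51 to 0.26), *krt18*, a keratin of simple epithelia, 0.38 (-0.08 to 0.85) and *des*, the muscle intermediate filament desmin, 0.12 (-0.19 to 0.43). A mean log2 level was taken over 3 clones used as markers of smooth muscle or peritubular cells (*smtn*, *des* and *dmd*). It lay between 5.93 and 6.18 in Fsh+Tri and between 6.17 and 6.81 in Fsh, which overlapped. The study's list gives *dmd* a meiotic or postmeiotic profile in the trout testis, so this mean is not particular to those cells. The part of cell numbers in it was not tested.

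Of 9 transcription factors, 2 fell and none rose, beside 13.7% of the study's list that fell and 0.46% of all clones. Both were members of the C/EBP delta family, which regulate genes of metabolism and inflammation in mammals. *cebpd1* had levels between 6.57 and 7.22 in Fsh+Tri, against 7.63 to 8.0 in Fsh, and fell by 0.95 (standard error 0.15, adjusted p = 8.22e-05). *cebpd2* had levels between 6.65 and 7.22 in Fsh+Tri, against 7.51 to 8.14 in Fsh, and fell by 0.89 (standard error 0.16, adjusted p = 0.000533). The arrays of neither clone overlapped. The related *cebpb* had a difference of -0.12 (95% interval -0.58 to 0.33). *dmrt1*, a factor of male sex differentiation, had levels between 7.05 and 7.49 in Fsh+Tri and between 7.39 and 8.10 in Fsh, a difference of -0.51 (-0.81 to -0.21, adjusted p = 0.0869, limma). *nr2f2*, an orphan nuclear receptor, had -0.42 (-0.75 to -0.09, adjusted p = 0.300). Its mean was 6.61 in Fsh, against 6.18 in Fsh+Tri, 6.01 in Tri and 5.97 in Ctrl, so it can have entered the test through Fsh alone. *purg*, a protein that binds purine-rich DNA, had -0.54 (-0.90 to -0.18, adjusted p = 0.166). Over the alternative settings that difference ran between -0.97 and 0.04. On the arrays labelled stage I-II, *purg* lay at 8.117 and 8.296 in Fsh+Tri and at 7.991, 8.246 and 8.275 in Fsh. For *dmrt1* the adjusted p fell under 0.05 in 3 of 39 settings, with cyclic loess, with array weights and without Ctrl replicate 4 (0.0461 without that array).

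The remaining named clones that fell belong to metabolism and protein folding. A clone annotated as a 14 kDa apolipoprotein, a carrier of lipids in blood plasma, had levels between 6.68 and 7.03 in Fsh+Tri and between 7.60 and 8.29 in Fsh. Its log2 difference was -1.06 (standard error 0.13, adjusted p = 4.15e-06). *cth*, the enzyme that makes cysteine from cystathionine, had levels between 7.33 and 7.79 in Fsh+Tri and between 8.39 and 8.83 in Fsh, with a difference of -1.04 (standard error 0.17, adjusted p = 0.000144). *cbs*, the enzyme before it in this pathway, had a difference of -0.01 (95% interval -0.37 to 0.36). *ndpkz3*, a nucleoside diphosphate kinase that keeps nucleoside triphosphates in balance, had levels between 7.45 and 7.96 in Fsh+Tri and between 8.10 and 8.81 in Fsh, and fell by 0.75 (standard error 0.14, adjusted p = 0.000713). *canx*, the endoplasmic reticulum chaperone calnexin, fell by 0.79 (standard error 0.20, adjusted p = 0.0425). Its arrays overlapped, with levels of 9.05 to 9.58 in Fsh+Tri and 9.57 to 10.58 in Fsh. Its call ended in 20 of 39 settings, 15 of them without 1 array. It held without Ctrl replicates 1 to 4, Fsh replicates 4 or 6, Tri replicates 3 or 4 or Fsh+Tri replicate 5, and the adjusted p reached 0.131 without others.

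Among the named clones, those with the largest rise encode a pituitary-type hormone and an enzyme of the pentose phosphate pathway. *sl*, which encodes somatolactin, a hormone of the growth hormone and prolactin family known from the fish pituitary, had levels between 9.66 and 10.09 with a median of 9.90 in Fsh+Tri and between 7.86 and 8.29 with a median of 8.18 in Fsh. Its arrays were separated by 1.38. *sl* was 3.41-fold higher in Fsh+Tri, a log2 difference of 1.77 (standard error 0.12, adjusted p = 7.12e-12). *pgd*, 6-phosphogluconate dehydrogenase, which yields NADPH, had levels between 10.87 and 11.43 in Fsh+Tri and between 9.78 and 10.39 in Fsh, with a difference of 1.02 (standard error 0.18, adjusted p = 0.000704). On the day 0 arrays *sl* lay between 7.30 and 7.79 and *pgd* between 6.85 and 8.05, below every one of these 12 arrays.

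Of the hormones, growth factors and signalling peptides, 11 clones in all, *sl* and *inhba* were higher and *vt1* was lower, and the median was -0.05. Over the study's list 6.86% were higher and 13.7% lower, and over all clones tested 0.986% and 0.46%. *inhba*, the beta A subunit that activin and inhibin share, had levels between 6.43 and 6.77 in Fsh+Tri and between 5.54 and 6.45 in Fsh. It was higher by 0.75 (standard error 0.19, adjusted p = 0.0385). That call ended in 16 of 38 settings, 10 of them without 1 array (any Fsh or Fsh+Tri replicate except 4), where the adjusted p reached 0.108. *inha*, the alpha subunit that pairs with it to form inhibin, had a median level of 10.88 in Fsh+Tri and 11.28 in Fsh, and its arrays overlapped. Its difference was -0.57 (95% interval -1.12 to -0.01), with an adjusted p of 0.499 in limma. Ctrl replicate 4, which enters the shared estimate of the spread, lay at 7.98 for *inha*, where the Ctrl median was 10.25. With single arrays left out, the adjusted p of *inha* ran between 0.0540 and 0.660, and it passed in 0 of 39 settings.

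Membrane transport and cell signalling each gave 1 further clone. *rhag*, an ammonia channel known from red blood cells, had levels between 6.93 and 7.88 in Fsh+Tri and between 6.05 and 6.75 in Fsh, a difference of 0.84 (standard error 0.15, adjusted p = 0.000705). A clone that the study's list describes as *stk3*, a kinase of the Hippo pathway, and gives the symbol of a 14-3-3 protein, had levels between 10.73 and 11.24 in Fsh+Tri and between 10.18 and 10.67 in Fsh. It was higher by 0.66 (standard error 0.13, adjusted p = 0.00283). *slc30a1*, an exporter of zinc, had a difference of 0.56 (95% interval 0.25 to 0.86, adjusted p = 0.0520, limma) and passed in 10 of 39 settings, among them without Ctrl replicates 1 or 4, Fsh replicate 3, Tri replicate 4 or Fsh+Tri replicate 2, with an adjusted p between 0.0124 and 0.152 when single arrays were left out.

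All 4 clones of antigen presentation had a difference above 0 with an unadjusted p under 0.05 in limma. So had 6.02% of all clones and 15 of the 102 clones of the study's list. After adjustment 2 of the 4 passed, beside 0.986% of all clones and 6.86% of the study's list that were higher. An MHC class II alpha chain, which presents peptides to T cells, had levels between 5.89 and 6.67 in Fsh+Tri and between 5.32 and 5.73 in Fsh, a difference of 0.87 (standard error 0.23, adjusted p = 0.0489). *onmy-uba* encodes an MHC class I chain, and its second clone had levels between 6.72 and 7.49 in Fsh+Tri and between 5.98 and 6.73 in Fsh, a difference of 0.68 (standard error 0.17, adjusted p = 0.0357). The first clone of *onmy-uba* had 0.57 (95% interval 0.16 to 0.99, adjusted p = 0.238) and *onmy-dab*, an MHC class II beta chain, 0.38 (0.01 to 0.74, adjusted p = 0.488). The MHC class II alpha chain lost its call in 25 of 38 settings. Among single arrays left out it kept it only without Ctrl replicates 1 to 4 or Fsh+Tri replicate 5, and the adjusted p reached 0.137. The second clone of *onmy-uba* lost its call in 14 of 39 settings, including without Fsh replicates 1, 3 or 4 or Fsh+Tri replicates 1, 4, 5 or 6, where the adjusted p reached 0.122. A mean log2 level was taken over 5 clones, these 4 and *ctss*, the protease cathepsin S. It lay between 7.49 and 7.93 on the Fsh+Tri arrays and between 7.01 and 7.35 on the Fsh arrays. The 2 *onmy-uba* clones, being of MHC class I, are not particular to antigen-presenting cells. All 5 differences were above 0, with that of *ctss* the smallest at 0.07. So were 29 of the 102 clones of the study's list and 2602 of the 4565 tested. The part of cell numbers in this was not tested.

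**Figure D2:**
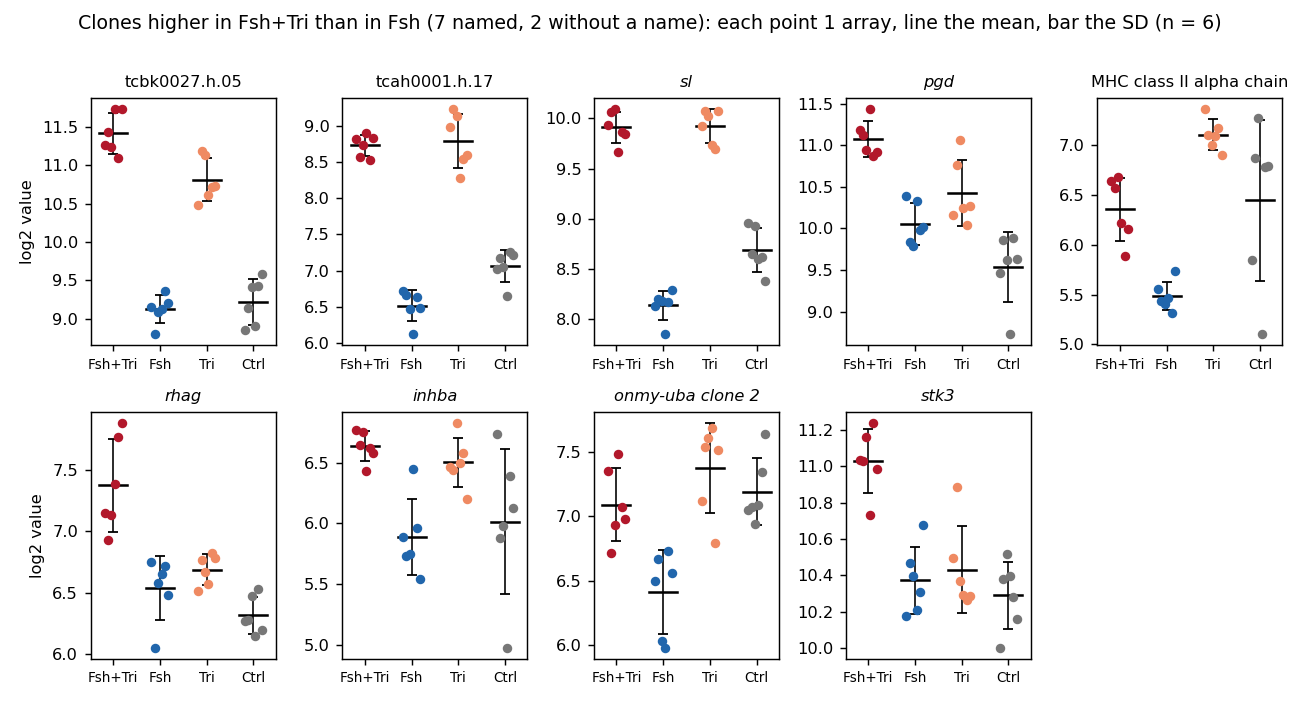
Log2 levels of the 7 named clones and 2 clones without a name that were higher in Fsh+Tri than in Fsh, in 1 panel per clone with the 4 culture treatments on the horizontal axis and each point 1 array. Lines are means and bars SDs over 6 arrays, and the Fsh+Tri points lie wholly above the Fsh points except in *inhba* and the second clone of *onmy-uba*.

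The clones without a name held the largest positive differences, up to 2.55 on the log2 scale. Of the 38 higher ones, 18 differed at least 2-fold and 4 at least 4-fold, and their median was 0.93. The 2 with the smallest p were tcbk0027.h.05, with levels between 11.10 and 11.73 in Fsh+Tri and between 8.80 and 9.36 in Fsh, and tcah0001.h.17, with levels between 8.53 and 8.90 in Fsh+Tri and between 6.13 and 6.72 in Fsh. Their log2 differences were 2.30 (standard error 0.16, adjusted p = 4.16e-12) and 2.22 (standard error 0.15, adjusted p = 4.44e-12), and gaps of 1.74 and 1.82 separated the arrays. The 7 lower ones had differences between -0.86 and -0.61. Among them tcac0004.e.16 fell by 0.74 (standard error 0.14, adjusted p = 0.00151) and tcbk0034.n.07 fell by 0.70 (standard error 0.16, adjusted p = 0.0119). tcbk0034.n.07 overlapped between the groups and had an adjusted p of 0.0560 without Fsh+Tri replicate 6.

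Trilostane was also given without Fsh, in the Tri explants, which were set against Ctrl. None of these arrays enters the difference between Fsh+Tri and Fsh, although all 24 share 1 estimate of the spread and, per the methods, 1 pool of explants. The labels give 2 of the 6 Tri arrays as stage III of testis maturation and all 6 Ctrl arrays as stage I-II, so that these groups are not balanced for stage. There, 23 clones were higher and 3 lower in Tri than in Ctrl (adjusted p under 0.05, limma), or 0.504% and 0.0657% of those tested. Of the 45 clones higher in Fsh+Tri, 19 passed in Tri minus Ctrl, 42.2% of these 45 and 82.6% of the 23, 36 had an unadjusted p under 0.05 (4.53% of all clones did so in that direction), and 43 had a difference above 0, as had 46.2% of all clones. Their median difference was 0.87 with Fsh and 0.60 without it. *sl* had 1.23 (adjusted p = 7.42e-08) and *pgd* 0.89 (adjusted p = 0.00964) without Fsh, and tcbk0027.h.05 and tcah0001.h.17 had 1.60 (adjusted p = 3.73e-08) and 1.74 (adjusted p = 8.83e-09). Ctrl replicate 4 lay at 8.73 for *pgd*, where the Ctrl median was 9.62, and at 8.60 for *sl*, where it was 8.64. Without that array 17 clones, in place of 19, were higher both with and without Fsh.

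Of the 21 clones lower in Fsh+Tri, 1 passed in Tri minus Ctrl, *slc26a4*, which is 4.76% of these 21 and 33.3% of the 3. An unadjusted p under 0.05 was seen in 5 of them (4.78% of all clones), and a difference below 0 in 19 of the 21, as in 53.8% of all clones, but the median was -0.17 without Fsh, against -0.86 with it. *slc26a4* had a log2 difference of -1.69 (standard error 0.22, adjusted p = 1.62e-05) without Fsh, *mmp19* -0.71 (adjusted p = 0.0524), *vt1* -0.16 (adjusted p = 0.797) and *dmd* -0.04 (adjusted p = 0.960). These medians carry the choice of clones by their difference with Fsh, which enlarges that value. They are therefore no test of whether the effects differ.

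**Figure D3:**
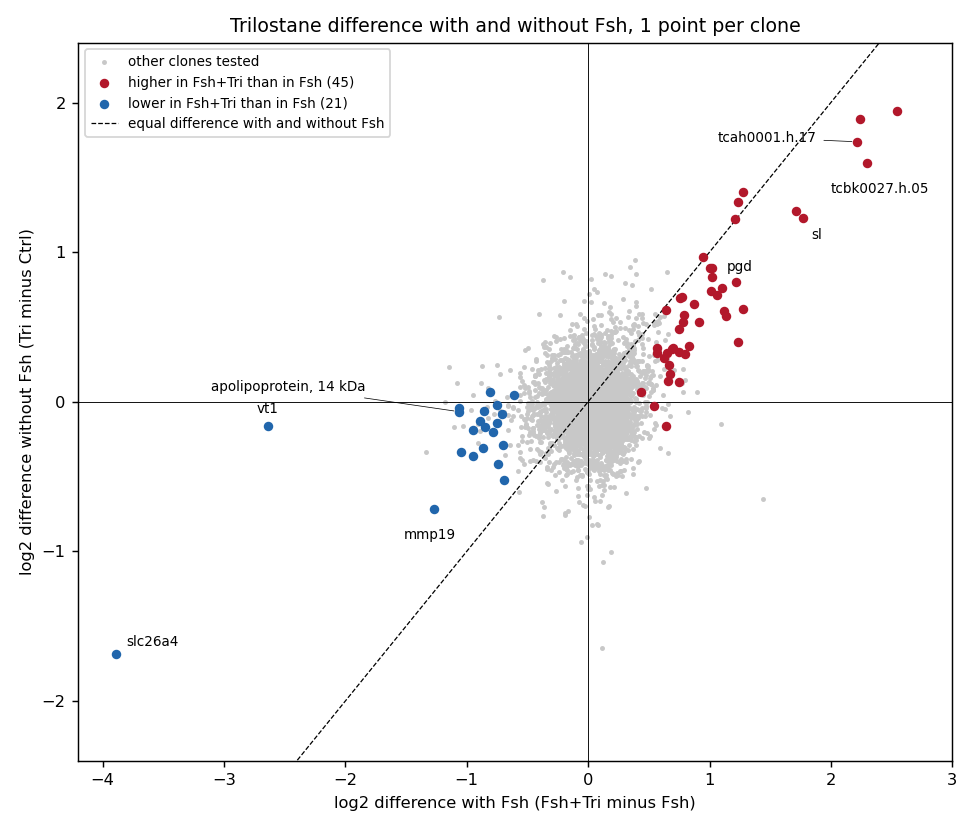
Log2 difference of each clone with Fsh (Fsh+Tri minus Fsh, horizontal axis) and without it (Tri minus Ctrl, vertical axis), with the 45 clones higher in Fsh+Tri in red, the 21 lower ones in blue and other clones in grey, and a dashed line of equal differences. The red points reach 2.55 with Fsh and 41 of the 45 lie below the dashed line, while most blue points stay near 0 on the vertical axis, *slc26a4* lying at -1.69. Red and blue clones were chosen by their horizontal value, so their side of the line is no test of whether the effects differ.

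The difference between the effect of trilostane with Fsh and that without it was tested in the same fit. It passed for 3 clones, 0.0657% of those tested, and 359 (7.86%) had an unadjusted p under 0.05, 116 below 0 (2.54%) and 243 above 0 (5.32%). The value was -2.47 for *vt1* (standard error 0.21, adjusted p = 6.22e-09), -2.20 for *slc26a4* (standard error 0.32, adjusted p = 0.000226) and -0.99 for the apolipoprotein clone (standard error 0.19, adjusted p = 0.0196). The mean of *vt1* was 6.06 in Ctrl and 5.90 in Tri, and that of *slc26a4* was 5.62 in Fsh+Tri and 5.59 in Tri. Whether the low end of the scale limited a fall without Fsh was not tested. The apolipoprotein clone lost this call, with an adjusted p of up to 0.0584, without Fsh replicate 5 or 6 or Fsh+Tri replicate 4 or 5. None of the 45 higher clones passed in this test, so that no difference between their effects with and without Fsh was shown, and 15 had an unadjusted p under 0.05, all with the larger effect with Fsh. Of the 21 lower clones, 17 had an unadjusted p under 0.05 in the same sense. Both counts carry the choice of these clones by the effect with Fsh, which is part of the difference tested, so that they are a description only. *dmd* had -1.03 (95% interval -1.47 to -0.58, adjusted p = 0.0660). *psma4*, a subunit of the proteasome, showed the widest contrast among named clones the other way, with 1.05 (0.59 to 1.52, adjusted p = 0.0660), made of 0.48 with Fsh and -0.58 without it.

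The named clones, which the study selected on arrays that include these, were also counted by function. Proteases and their inhibitors had 2 lower and 0 higher of 8 clones, the cytoskeleton and cell junctions 4 and 0 of 11, transcription factors 2 and 0 of 9, and lipid and sterol metabolism 1 and 0 of 6, with medians of -0.43, -0.31, -0.42 and -0.34. Antigen presentation had 0 lower and 2 higher of 4, with a median of 0.63. The cell cycle, RNA and ribosome, and steroid and cholesterol synthesis lists had none in either direction of 5 clones each, and the medians of the cell cycle and of the RNA and ribosome lists were -0.09 and -0.05. Membrane transport and energy metabolism had 1 lower and 1 higher each, of 6 and 5 clones, and amino acid metabolism and protein folding 1 lower and 0 higher, of 3 and 5. Of 15 clones of other functions, 1 was higher and 0 lower, and of 4 uncharacterized ones none passed. Over all 102 clones, 14 were lower and 7 higher and the median was -0.18. Over the 4463 clones outside the study's list, 7 were lower and 38 higher and the median was 0.04.

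**Figure D4:**
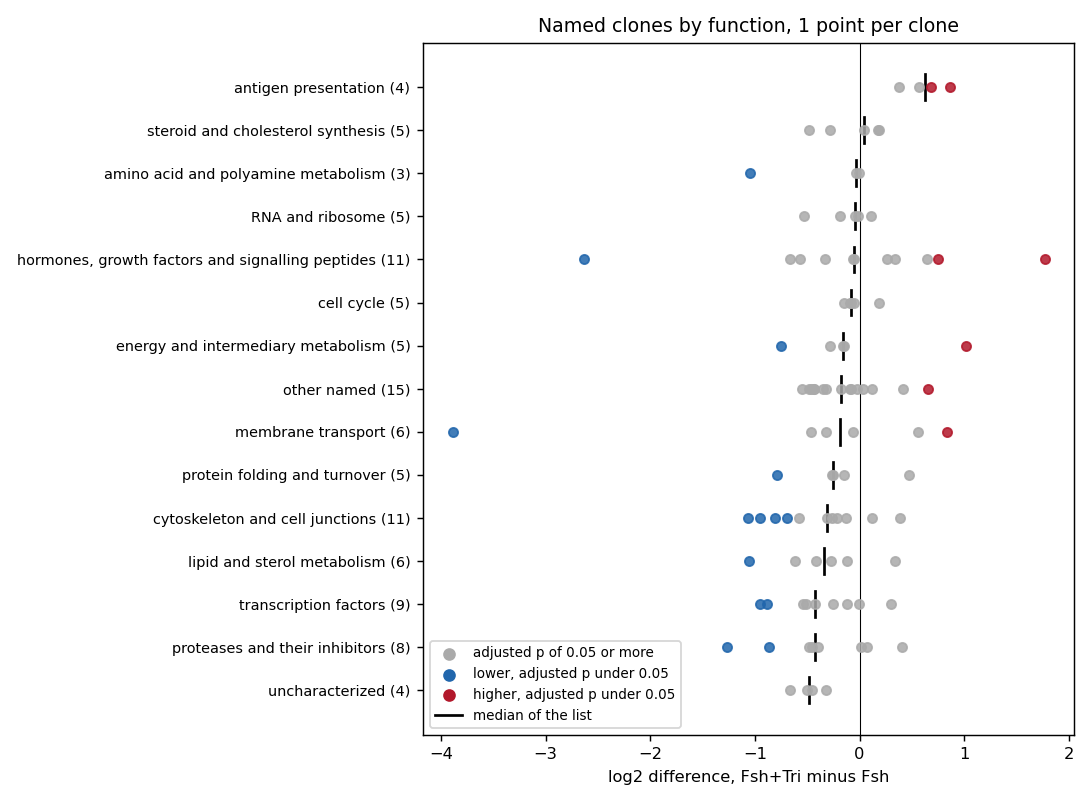
Log2 difference between Fsh+Tri and Fsh for the 102 named clones, in 1 row per functional list with the number of clones in brackets. Blue and red points passed as lower and higher, grey points did not pass, and the short lines are medians, which run between -0.48 for the uncharacterized clones and 0.63 for antigen presentation.

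The study's list also gives, from earlier experiments, where in the trout testis a transcript is found and how it responded to androgen in vivo. The counts here stand beside 13.7% lower and 6.86% higher over the whole list, and 0.46% and 0.986% over all clones tested. Of 20 clones with a somatic profile, 6 were lower (the apolipoprotein clone, *cebpd1*, *cebpd2*, *ctl1*, *smtn* and *ndpkz3*) and 1, *pgd*, was higher. Of 17 somatic clones listed as higher at stage 8 of maturation, 5 were lower (*slc26a4*, *vt1*, *cth*, *canx* and *cldn11*) and 1, *rhag*, was higher, with a median of -0.48. Of 11 somatic clones listed as lower at that stage, 0 were lower and 2, *inhba* and the MHC class II alpha chain, were higher, with a median of 0.18. Of the 11 clones with a spermatogonial or meiotic profile, *mmp19* and *dmd* were lower and none was higher, and of 5 listed as both somatic and spermatogonial, none was lower and 1, the second clone of *onmy-uba*, was higher, with a median of 0.07. Of 15 clones listed as raised by androgen at day 7 in vivo, all had a difference below 0, as had 73 of the 102 and 43% of all clones tested. The 15 differences ran between -3.89 and -0.01 with a median of -0.48, and 4 passed as lower, *slc26a4*, *vt1*, *cth* and *cldn11*. The study chose its list for a response to Fsh on arrays that include these, so this shared direction is not independent evidence. The 5 clones listed as lowered by androgen had 1 that passed as higher, *inhba*, and a median of 0.34. The 3 clones listed as raised at day 14 were mixed, with *smtn* lower, *rhag* higher and a median of 0.26. Of 2 clones listed as lowered at day 7 and raised at day 14, *inha* had -0.57 and *slc30a1* 0.56, and neither passed.

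None of the 5 clones of steroid and cholesterol synthesis passed, and 1, *cyp46a1*, had an unadjusted p under 0.05. *hsd3b1*, the 3β-hydroxysteroid dehydrogenase of Leydig cells which trilostane inhibits, had levels between 7.28 and 7.78 in Fsh+Tri and between 7.13 and 7.83 in Fsh. The groups overlapped, and the difference was 0.18 (95% interval -0.11 to 0.47, adjusted p = 0.752, limma). *fdps*, an enzyme of isoprenoid synthesis, had -0.28 (-0.61 to 0.05). *cyp46a1*, a cholesterol hydroxylase, had -0.48 (-0.85 to -0.12), with an adjusted p of 0.273. Among lipid genes outside this list, *etnk1*, a kinase of phospholipid synthesis, had -0.62 (-1.01 to -0.22, adjusted p = 0.130), and *gpam*, an enzyme of triglyceride synthesis, 0.34 (0.07 to 0.61, adjusted p = 0.322). *etnk1* passed in 1 of 39 settings, with only the 12 Fsh+Tri and Fsh arrays.

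*amh*, anti-Müllerian hormone of Sertoli cells, had levels between 7.99 and 8.55 in Fsh+Tri and between 7.44 and 8.11 in Fsh. The difference was 0.34 (95% interval -0.09 to 0.76, adjusted p = 0.643, limma). *mdka*, a midkine growth factor, had 0.26 (-0.15 to 0.67). The proliferation markers *mcm7*, a DNA replication helicase, *ccne1*, a cyclin of S-phase entry, and *cenpa*, a centromere histone, had 0.19 (-0.13 to 0.50), -0.15 (-0.52 to 0.22) and -0.09 (-0.44 to 0.27), and *ccng1*, another cyclin, had -0.06 (-0.39 to 0.27). *odc1*, the enzyme that opens polyamine synthesis, had -0.03 (-0.37 to 0.31). *rps15*, the reference gene, had levels between 10.79 and 11.21 in Fsh+Tri and between 10.78 and 11.32 in Fsh, with a difference of -0.08 (-0.38 to 0.21).

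**Figure D5:**
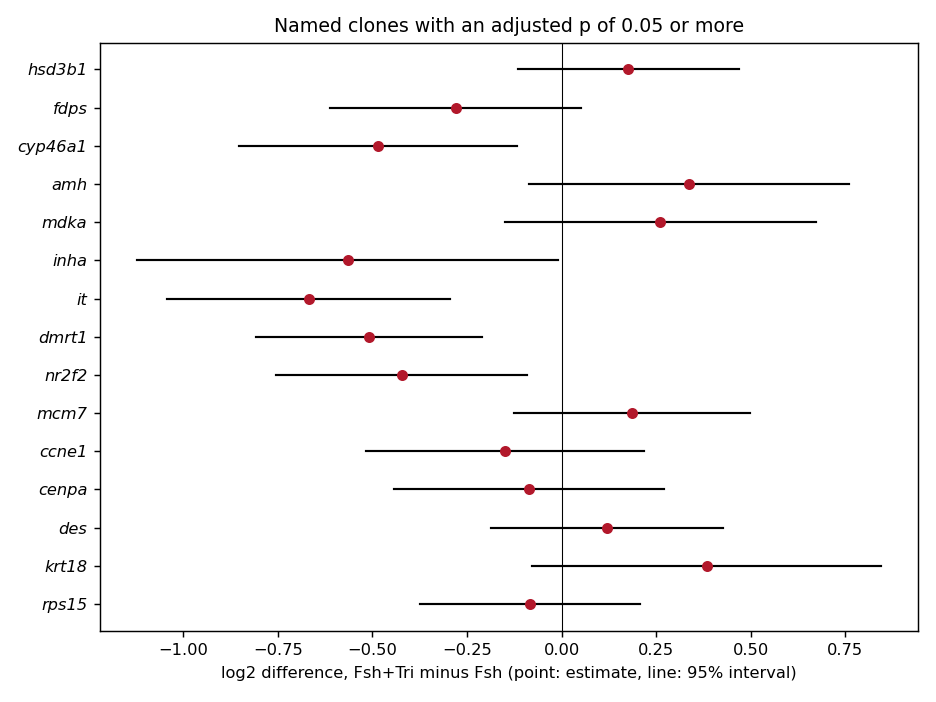
Log2 difference between Fsh+Tri and Fsh for 15 named clones that did not pass, as points with 95% intervals from limma as lines. The interval of *hsd3b1* runs between -0.11 and 0.47 and that of *amh* between -0.09 and 0.76, both across 0, whereas that of *it* lies wholly below 0 before adjustment for the number of clones.

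Among the cell type markers not yet described were 4 of Sertoli cells (*amh*, *dmrt1*, *inha* and *cldn11*). Their mean log2 level lay between 8.80 and 8.92 on the Fsh+Tri arrays and between 9.09 and 9.32 on the Fsh arrays. Of the 4, 3 had a difference below 0, as had 73 of the 102 clones of the study's list, whereas *amh* had 0.34. Only 1, *cldn11*, passed as lower, beside 13.7% of that list and 0.46% of all clones. The single Leydig cell marker, *hsd3b1*, overlapped between the groups as given above. Epithelial markers (both *krt12* clones and *krt18*) lay between 8.0 and 8.49 in Fsh+Tri and between 8.21 and 8.56 in Fsh, which overlapped. Clones taken as markers of dividing germ cells (*cenpa*, *mcm7* and *ccne1*) lay between 8.07 and 8.46 in Fsh+Tri and between 7.88 and 8.67 in Fsh, which also overlapped. The study's list gives *cenpa* a meiotic or postmeiotic profile but *ccne1* a somatic one. This mean is therefore not particular to germ cells. The part of cell numbers in the differences was not tested.

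The sample labels give 2 Fsh+Tri and 3 Fsh arrays as stage I-II of testis maturation and 4 Fsh+Tri and 3 Fsh arrays as stage III, whereas the methods describe wells that held explants of both stages. All 45 higher and all 21 lower clones kept their direction within each stage, with medians of 0.78 and -0.96 at stage I-II and 0.92 and -0.90 at stage III. These arrays chose the clones, so this describes them only. *slc26a4* had log2 differences of -3.99 at stage I-II and -3.88 at stage III, *vt1* -2.75 and -2.63, *sl* 1.58 and 1.89, and *pgd* 1.28 and 0.80. Alone, the stage I-II arrays gave 7 higher and 6 lower clones and the stage III arrays 20 and 9. With stage as a covariate 40 were higher and 21 lower, 18 were higher both with and without Fsh, and 3 had a different effect of trilostane.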

How the data were processed

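Total RNA of rainbow trout testis explants was measured on cDNA nylon arrays. The authors deposited scanner intensities per spot and 1 table of log2 values, for which, per their methods, intensities were divided by a vector oligonucleotide signal, multiplied by its median, brought to log2 and quantile normalized. The log2 table was the main input, and scanner intensities, without the oligonucleotide correction, served as an alternative. Rows of water and vector control (192 of 9216) were left out. Array number, 6 per treatment, limits the precision.

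One limma 3.58.1 model (R 4.3.3) with 4 treatment means was fitted to the 24 cultured arrays. Contrasts were Fsh+Tri minus Fsh, Tri minus Ctrl and their difference, adjusted by Benjamini-Hochberg at 0.05. Of the clones, 8244 were measured on 80% or more of these arrays, and 4565 of those also passed the filter on level. The clusters of the study's list, formed on these arrays, were not counted. Clones were named through that list, of which 85 of 102 identifiers matched best their own scanner spot. Named are all listed clones that passed, up to 4 further members of each functional list, *hsd3b1*, *amh*, *mdka*, *rps15*, and 2 unnamed clones per direction with the smallest p. The members and lists were chosen with earlier results of these data known. The fit was tested on simulated data. No 2 arrays were identical. Alternatives covered filters, normalization, array weights, the variance model, stage, image software, the replicate number and leaving out each array. No sequence or genome coordinate was used. One clone is not reported here. Plots were made in Python 3.11.15 (matplotlib 3.10.9).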

Additional observations from a re-analysis of the deposited data

Results flagged for a closer look

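The effect of trilostane differed with and without Fsh for 3 clones by the test of that difference in limma, *vt1* (-2.47), *slc26a4* (-2.20) and the 14 kDa apolipoprotein clone (-0.99 on the log2 scale). In 144 groups of 6 arrays, 2 for each of 72 clones, 12 held an array that lay far from the other 5, and chance alone flags about 1 in 20. The groups were Fsh+Tri and Fsh, and the Tri and Ctrl arrays were not screened. On the Fsh+Tri arrays these were *fblim1* in replicate 6 at 7.32 (the nearest at 6.80), *dmrt1* in replicate 3 at 7.49 (7.21), *cyp46a1* in replicate 3 at 6.58 (6.97), *plg* in replicate 3 at 7.53 (7.11), *gpam* in replicate 1 at 7.10 (6.80), *onmy-dab* in replicate 4 at 9.44 (8.98) and *psma4* in replicate 3 at 9.03 (9.40). On the Fsh arrays they were *ccng1* in replicate 3 at 8.29 (7.46) and 4 values of replicate 4, with *plg* at 8.10 (7.54), *cbs* at 7.01 (7.37), *mcm7* at 6.47 (7.05) and *sl* at 7.86 (8.13).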

How the results depend on the processing

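The 39 alternatives gave no change of direction in a clone described here that passed. Of 25 such clones, 7 kept their call under every alternative that tested them, which for tcah0001.h.17 and tcbk0027.h.05 were 38 of the 39. Of the 37 alternatives that used more than a single stage, 19 clones kept their call under all that tested them. Of 47 clones that did not pass, 9 did so under at least 1 of those 37. Leaving out 1 array gave 52 to 88 clones that differed, 36 to 58 higher and 16 to 30 lower. The total was lowest without Fsh+Tri replicate 6 and highest without Ctrl replicate 4. Such fits gave 2 to 5 clones with a different effect of trilostane (5 without Ctrl replicate 3), and 13 to 20 higher both with and without Fsh. Clones without overlap numbered 97 to 136, but leaving out a Ctrl or Tri array cannot change that count. Leaving out an Fsh or Fsh+Tri array can only keep or raise it, so the range does not measure how stable it is. The 12 arrays fitted alone gave 92, 60 higher and 32 lower. The stage I-II arrays alone gave 13 clones that differed, 7 higher and 6 lower, of which 6 were higher without Fsh too, and 1 whose effect differed. The stage III arrays alone gave 29, 20 higher and 9 lower. Fewer arrays enter these fits, and overlap of 6 with 6 arrays could not be counted there. Replicate numbers did not pair the arrays, since deviations of same-numbered Fsh+Tri and Fsh arrays correlated at -0.19 to 0.01 and 0 of 6 arrays correlated best with their own number. With the replicate block, 63 clones differed, 40 higher and 23 lower. Scanner intensities gave 51 higher and 24 lower over 5084 spots and could not be matched to clones outside the study's list.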
